A study of Irpex lacteus with 14 samples.

Results

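Transcript levels of the fungus Irpex lacteus on wheat straw were compared with those on aspen, gene by gene. All genes of the deposited table entered the comparison whose normalized log2 read count reached 3.32 (a normalized count of about 10) on at least 2 of the 5 substrates of the series. This kept 967 of 977 genes. Whether the deposited table, of 1000 rows, was cut from a longer one could not be worked out. Shares of all genes and of summed read counts below therefore refer to the kept genes only. The 10 genes left out reached at most 3.44 on straw or aspen, and 2 of them differed between these substrates by 2-fold or more.

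All cultures were of strain CCBAS Fr. 238 617/93 and were harvested as mycelium, with what remained of the solid, after 3 days of shaking at 30 °C in 100 ml of a mineral medium with yeast extract. In the straw cultures, maltose was at 2.5 g per litre, and wheat straw sifted to fragments under 2 mm was added at 15 g per litre. The aspen cultures held 15 g per litre of wood milled to 1 mm, and the maltose level in their label is not legible. Plant material, particle size and possibly free sugar therefore differ together and cannot be told apart. Straw and aspen had 3 libraries each, and the table gives 1 value per gene and substrate pooled over them. The other columns, used here for context, were maltose alone (20 g per litre, 3 libraries), cellulose (Avicel, 3 libraries) and pine sifted to under 2 mm (2 libraries). Cellulose and pine were added at 15 g per litre with maltose at 2.5 g per litre, so both also differ from the maltose cultures in free sugar.

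White-rot fungi such as Irpex lacteus digest all polymers of the plant cell wall with secreted hydrolases, lytic polysaccharide monooxygenases and peroxidases. Walls of grasses such as wheat carry arabinoxylan with ferulic acid side groups. Walls of hardwoods such as aspen carry acetylated glucuronoxylan, and their lignin is rich in syringyl units. The table identifies genes by numbers of the MycoCosm portal without pairing them with names or functions. No gene is therefore given a function here, and only a few numbers are printed per selection.

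No spread between libraries accompanied the values, so the differences below are sizes without a test or a p-value. A gene is called higher or lower when its 2 pooled values differ by at least 1 on the log2 scale (2-fold). Read counts were not corrected for gene length, so a level is compared between substrates and not between genes. The depth of each library is unknown.

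Wheat straw and aspen differed by at least 2-fold for 315 genes, 32.6% of those kept. Of these, 149 (15.4%) were higher on straw and 166 (17.2%) were lower. At 4-fold the number was 100 genes (10.3%), with 50 (5.17%) in each direction. At 8-fold it was 12 higher and 13 lower, and at 16-fold 5 and 5. The 2 directions were thus close to balanced at each of these sizes on the deposited scaling.

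The median difference of straw minus aspen was 0.01 on the log2 scale, with the middle 50% of genes between -0.70 and 0.64. Values were within 0.5 of each other for 369 genes (38.2%). The largest differences were 7.31 and -5.14. Across the 967 genes, the levels on the 2 substrates had Pearson's r = 0.91 and Spearman's rho = 0.90, as a description of columns that were normalized together. The limit of 2-fold falls in a continuous range: 13 higher genes lay between 1 and 1.1 and 20 genes between 0.9 and 1, and in the other direction 17 and 21 genes did. The difference of the column medians was -0.13. Centring the columns on their medians removes it, takes the median difference to 0.14, and gave 176 higher and 138 lower genes. Quantile normalization gave 140 and 140.

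**Figure D1:**
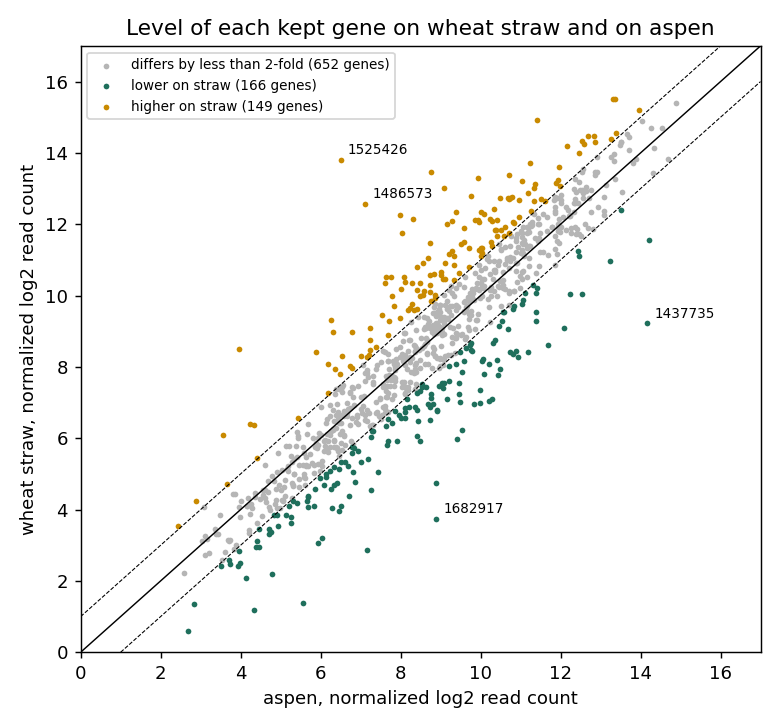
Normalized log2 read count of each of the 967 kept genes on aspen (horizontal axis) and on wheat straw (vertical axis), 1 point per gene, with equality as a solid line and 2-fold differences as dashed lines. The 149 genes above the band and the 166 below it spread over the whole range, those above mostly at higher values, and the 2 largest differences in each direction are labelled by gene ID.

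The largest difference belonged to gene 1525426. It had a log2 value of 13.81 on straw and 6.50 on aspen, which is 159-fold higher on straw. On pine it stood at 14.95, on maltose at 9.32 and on cellulose at 8.71. Aspen gave its lowest value of the 5 substrates, and straw and pine gave its highest.

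Gene 1486573 came second, at 12.58 on straw and 7.11 on aspen (44.3-fold higher on straw). It stood at 7.45 on pine, close to aspen, at 10.02 on cellulose and at 0.37 on maltose. Its order over the substrates was therefore straw, cellulose, both woods and maltose, unlike that of gene 1525426, which was high on straw and pine.

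In the other direction, gene 1682917 had 3.75 on straw and 8.88 on aspen, a difference of -5.14 (-4.49 after adding 8 to the linear values, since the straw value is low). Its values were 6.90 on pine, 5.97 on maltose and 4.98 on cellulose. Straw gave its lowest value and aspen its highest. Gene 1437735 was 30.6-fold lower on straw, at 9.22 against 14.16 on aspen. On pine it reached 15.45, and its values were 11.79 on maltose and 9.66 on cellulose, so both woods lay above the other 3 substrates.

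Genes with a log2 value of 12 or more on straw or on aspen were looked at separately, since their differences do not rest on low values. There were 151 such genes. They enter through either compared substrate, and 132 genes reached 12 on straw against 91 on aspen, so the balance of higher and lower genes among them is not read here. The 2 largest positive differences among them were those of genes 1525426 and 1486573. The largest negative ones were those of gene 1437735 and of gene 784253, which was 8.08-fold lower on straw (9.08 against 12.10 on aspen). Gene 784253 stood at 12.02 on cellulose, 11.12 on pine and 10.22 on maltose. It was thus lowest on straw, with cellulose and aspen at nearly the same level.

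Straw stood apart from both woods for some of the kept genes, whatever their level. Of the 967 kept genes, the straw value was at least 2-fold above both aspen and pine for 67 and at least 2-fold below both for 97. The balance depended on the scaling, with 77 above and 55 below after quantile normalization and 85 and 63 after centring. It also depended on low values: adding 8 to the linear values gave 66 above and 70 below. The clearest cases above were gene 1486573 and gene 1581701. Gene 1581701 had 12.26 on straw and 12.32 on cellulose against 7.98 on aspen, 7.40 on pine and 6.23 on maltose. The straw value exceeded that on aspen 19.5-fold and that on pine 29.0-fold. The clearest cases below were genes 1437735 and 1682917, whose values are given above. For gene 1437735 the pine value exceeded the straw value 75.1-fold.

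Aspen stood apart from straw and pine for some genes, and some of them, such as gene 1682917, are also counted above. Of the 967 genes, aspen was at least 2-fold above both for 45 (4.65%) and at least 2-fold below both for 69 (7.14%). These counts were 69 and 46 after quantile normalization, 51 and 67 after centring, and 39 and 63 with 8 added to the linear values. After gene 1525426, the clearest case below was gene 1086632, at 8.32 on aspen against 12.15 on straw and 12.36 on pine. The straw value was 14.2-fold the aspen value, and it had 9.87 on maltose and 9.56 on cellulose. Among genes high on aspen, gene 565264 had 8.88 on aspen against 4.75 on straw and 4.98 on pine, 17.5-fold lower on straw than on aspen. Its values on cellulose (7.68) and maltose (5.87) lay between. Gene 886641 had 5.55 on aspen against 1.37 on straw and 1.23 on pine, both under the level of 3.32 that the filter asks for. Its difference of -4.18 came to -2.37 after adding 8 to the linear values. Counts with straw apart use the straw value in both of their differences, and counts with aspen apart the aspen value, so an error in that value moves both differences.

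**Figure D2:**
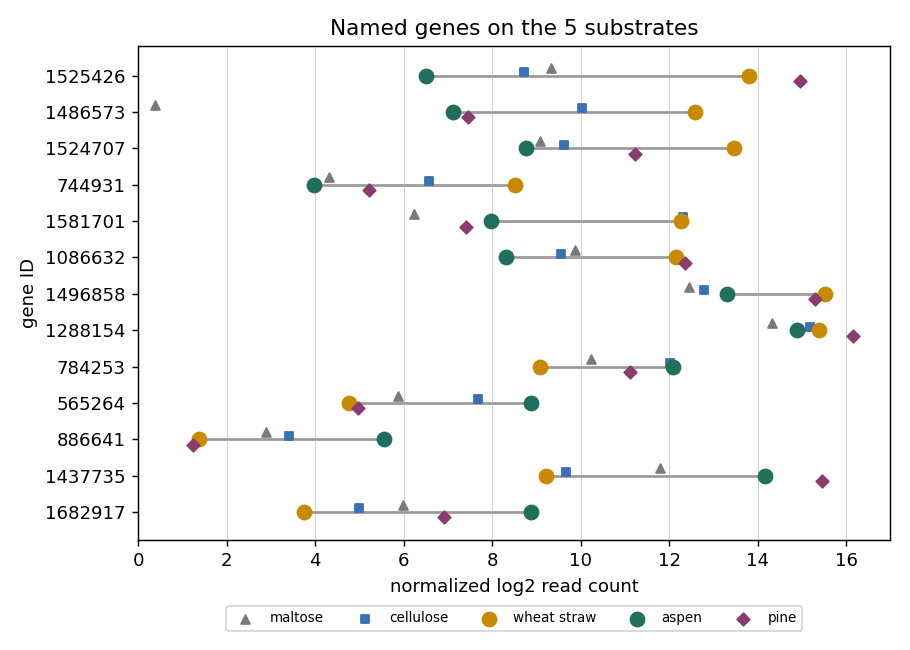
Normalized log2 read count (horizontal axis) of the 13 named genes on the 5 substrates, with a grey line joining wheat straw and aspen, 1 pooled value per substrate. Gene 1525426 shows the widest gap, from 6.50 on aspen to 13.81 on straw, and pine sits beside straw for genes 1525426 and 1086632 but beside aspen for genes 1486573 and 1581701.

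In some genes straw and aspen marked opposite ends of the range over the substrates. Straw gave the highest and aspen the lowest of the 5 values for 35 genes. Gene 1524707 led them, at 13.47 on straw against 8.77 on aspen (25.9-fold), with 11.23 on pine, 9.62 on cellulose and 9.08 on maltose. Gene 744931 followed, at 8.51 on straw against 3.97 on aspen (23.3-fold, or a log2 difference of 3.98 after adding 8), with 6.57 on cellulose, 5.22 on pine and 4.31 on maltose. The reverse order, aspen highest and straw lowest, was found for 43 genes (4.45%), led by genes 1682917 and 565264. How often other pairs of substrates marked the ends was not counted.

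Straw more often than aspen gave the extreme value of a gene. Over all 967 genes, straw gave the highest of the 5 values for 21.7% and the lowest for 30.1%, and aspen for 12.4% and 15.6%. Within the classes such shares are partly fixed by the choice of genes. Among the 149 genes higher on straw, straw gave the highest value of the 5 for 105 genes (70.5%), and aspen gave the lowest for 31 (20.8%). Maltose gave the lowest value for 88 (59.1%), where it did so for 29.3% of all genes. Among the 166 genes lower on straw, straw gave the lowest value for 129 (77.7%), and aspen gave the highest for 64 (38.6%). Maltose gave the highest for 48 (28.9%), cellulose for 30 (18.1%) and pine for 24 (14.5%). Over all genes these shares were 18.4%, 13.8% and 33.7%. Of the 967 genes, straw was at least 2-fold above each of the other 4 substrates for 40 genes and at least 2-fold below each for 53. The same counts for aspen were 13 and 6. After quantile normalization they were 37 and 30 for straw and 18 and 8 for aspen, and after centring 46 and 41, and 8 and 9. With 8 added to the linear values they were 39 and 31 for straw, and 12 and 4 for aspen. The excess of genes below on straw thus rested in part on low values.

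The levels on maltose, cellulose and pine were then set beside those on straw and aspen. Among the genes higher on straw, pine lay nearer to straw than to aspen for 77 of 149 (51.7%), cellulose for 38 (25.5%) and maltose for 11 (7.38%). In the 652 genes that differed by less than 2-fold these shares were 52.5%, 35.3% and 36.3%, so pine was placed as in those genes, and cellulose and maltose lay nearer to straw for a smaller share. Pine alone of the 3 lay nearer to straw for 65 genes, cellulose alone for 26, and none of them for 45. These patterns made up 43.6%, 17.4% and 30.2% of the genes higher on straw, and 25.5%, 5.21% and 26.1% of the 652 genes under 2-fold. Both pine and cellulose, without maltose, lay on the straw side for 2 genes.

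Among the genes lower on straw, pine lay nearer to aspen for 109 of 166 (65.7%), cellulose for 108 (65.1%) and maltose for 107 (64.5%). In the 652 genes under 2-fold these shares were 47.5%, 64.7% and 63.7%, so the placement of cellulose and maltose was close to that in those genes. All 3 lay nearer to aspen for 63 genes (38.0%, against 26.1% of the 652), and all 3 lay nearer to straw for 17 (10.2%, against 14.4%). Maltose and cellulose lay nearer to straw, with pine nearer to aspen, for 25 genes (15.1%, against 8.74%). These placements use the straw and aspen values that define the classes, so they describe levels and are not independent of the comparison.

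Differences among maltose, cellulose and pine share no column with straw minus aspen and can be read beside it. The genes higher on straw had a median cellulose minus maltose difference of 0.48, against 0.03 over all genes. At 2-fold, 54 of the 149 (36.2%) were higher on cellulose than on maltose, where 12.5% of all genes were, and 3 (2.01%) were lower, where 3.83% of all genes were. Among the 50 genes at least 4-fold higher on straw, 25 were higher on cellulose than on maltose. Rescaling moved these medians: that of the higher genes became 0.15 with quantile normalization and 0.11 with centring, and that of all genes -0.23 and -0.27. The shares past 2-fold were then 30.7% and 26.7% of the higher genes, against 9.82% and 9.41% of all genes.

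Pine and maltose were compared in the same way. The genes higher on straw had a median pine minus maltose difference of 1.80, against 0.43 over all genes. At 2-fold, 108 of the 149 (72.5%) were higher on pine than on maltose and 4 were lower, where 32.2% and 9.41% of all genes were. With quantile normalization the median was 0.99, with 70 of the 140 genes then higher on straw (50.0%) and 18.0% of all genes higher on pine, and 7 of the 140 and 20.9% of all genes lower. The median pine minus cellulose difference was 0.83, against 0.31 over all genes. Here 70 of the 149 (47.0%) were higher on pine and 32 (21.5%) were higher on cellulose by 2-fold, where 24.7% and 11.7% of all genes were. With quantile normalization these shares were 38.6% and 23.6%, against 17.6% and 17.4% of all genes. With centring they were 36.4% and 23.3%, against 17.6% and 18.4%. The genes higher on straw thus included both kinds, those with more reads on pine and those with more reads on cellulose. The share with more reads on cellulose lay nearer to that of all genes after rescaling.

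The genes lower on straw lay below the median of all genes in each of these differences. Their medians were -0.18 for cellulose minus maltose, -0.17 for pine minus maltose and -0.10 for pine minus cellulose. Of the 166 genes, 17 were higher and 17 lower on cellulose than on maltose. On pine against maltose, 35 (21.1%) were higher and 41 (24.7%) lower. On pine against cellulose, 32 were higher and 38 (22.9%) lower. Lower genes were thus a larger share than the 3.83%, 9.41% and 11.7% of all genes in each of the 3 differences. The balance moved with the scaling, within the class and over all genes. With quantile normalization, 140 genes were lower on straw. Of these, 11 (7.86%) were higher and 30 (21.4%) lower on cellulose than on maltose, where 9.82% and 8.79% of all genes were. On pine against maltose, 19 (13.6%) were higher and 52 (37.1%) lower, where 18.0% and 20.9% of all genes were. With centring, 138 genes were lower on straw, and these counts were 12 and 29, and 13 and 62. The shares of all genes were then 9.41% and 8.89%, and 18.2% and 23.7%.

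Across all 967 genes, straw minus aspen had r = 0.35 (rho = 0.25) with cellulose minus maltose, r = 0.46 (rho = 0.44) with pine minus maltose, and r = 0.20 (rho = 0.25) with pine minus cellulose. All columns were normalized together, and genes are not independent replicates. After quantile normalization the median pine minus maltose difference lay 1.16 above that of all genes in the genes higher on straw, against 1.37 on the deposited scaling. In the genes lower on straw it lay 0.47 below, against 0.60 below.

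**Figure D3:**
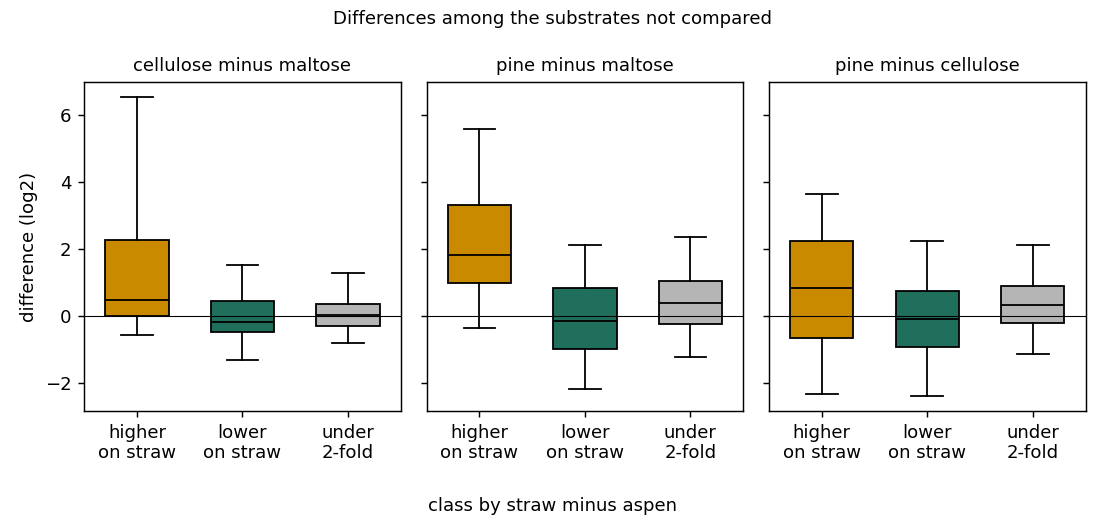
Log2 differences of cellulose minus maltose, pine minus maltose and pine minus cellulose (vertical axis) for the 149 genes higher on straw than on aspen, the 166 lower and the 652 under 2-fold. Lines in the boxes are medians, boxes span the middle 50% of genes and whiskers the 5th to 95th percentile. The medians of the genes higher on straw (0.48, 1.80 and 0.83) lie above those of the others in each panel. For pine minus cellulose their box starts at -0.65, below the -0.22 of the 652 genes.

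The direction of the difference varied with the level of the gene. Genes were classed by their mean log2 value on maltose, cellulose and pine, which the comparison does not use. The 176 genes under 6 had a median straw minus aspen difference of -0.42, with 15 higher and 48 lower at 2-fold. The 280 genes from 8 to 10 had a median of 0.14, with 52 higher and 50 lower. The 95 genes at 12 or more had a median of 0.36, with 16 higher and 6 lower. The straw column had the widest spread of the 5: the middle 50% of its genes spanned 4.36 on the log2 scale, against 3.74 for aspen, 3.82 for cellulose, 3.85 for maltose and 3.99 for pine. With quantile normalization, which gives the columns the same distribution, the order of the classes turned. The medians were then 0.15 for genes under 6 and -0.18 for genes at 12 or more. With centring, they were -0.29 and 0.49. With 8 added to the linear values, they were -0.31 and 0.36. The genes under 6 then had 11 higher and 24 lower at 2-fold, so part of their lower genes rested on low values.

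**Figure D4:**
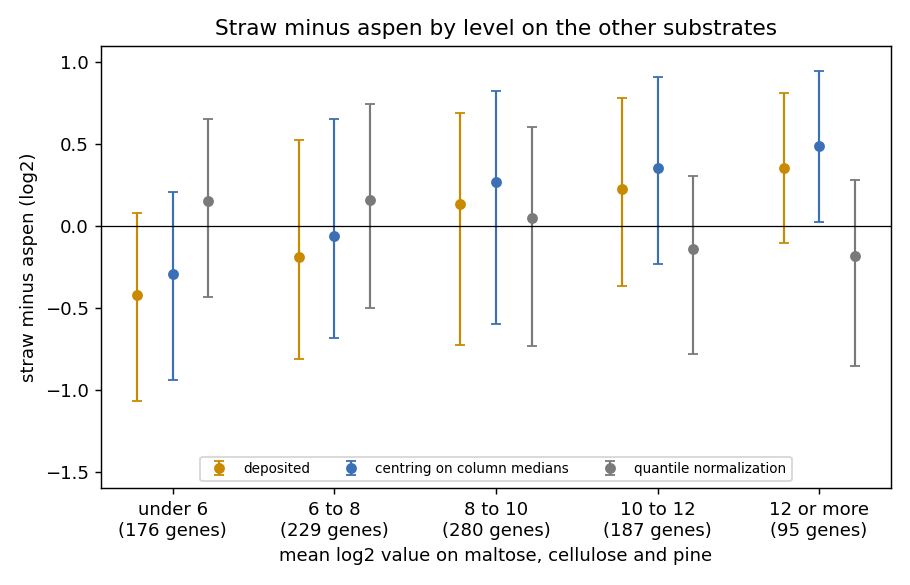
Median straw minus aspen difference (log2, vertical axis) of genes classed by their mean log2 value on maltose, cellulose and pine, with bars spanning the middle 50% of the genes of a class. On the deposited values the medians run from -0.42 to 0.36, and with quantile normalization from 0.15 to -0.18.

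Some of the lower genes rested on low values. Of the 166 genes lower on straw, 18 had a straw value under 3.32, whereas 2 of the 149 genes higher on straw had an aspen value under it. Over all kept genes, 32 were under it on straw and 11 on aspen. Each class is also chosen to be low in the column counted, so these counts are partly fixed by the choice. Adding 8 to the linear values, which damps differences at low levels, left 144 genes higher and 140 lower.

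The genes higher on straw held 38.7% of the summed read counts of the kept genes on straw and 15.4% on aspen. Their share on the substrates that did not choose them was 23.4% on pine, 14.5% on cellulose and 9.00% on maltose. Gene 1496858, with the highest read count on straw, was 1 of them. It had 15.51 on straw, 15.29 on pine, 13.30 on aspen, 12.78 on cellulose and 12.45 on maltose. The straw value was 4.62-fold the aspen value. Straw and pine were its high substrates.

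The genes lower on straw held 2.31% of the sum on straw and 12.4% on aspen. As for the higher genes, the straw and aspen shares are partly fixed by the choice of genes. On the other substrates the genes lower on straw held 5.57% on pine, 16.4% on cellulose and 18.5% on maltose. A single gene, 1596132, chosen after its values were seen, made up much of this: without it the shares were 7.40% on cellulose and 8.76% on maltose. It had 17.16 on maltose, 17.31 on cellulose, 14.22 on aspen, 11.96 on pine and 11.55 on straw, so it was 6.40-fold lower on straw than on aspen. The gene with the highest read count on aspen, 1288154, differed little, at 14.88 against 15.39 on straw, and stood at 16.15 on pine, 15.18 on cellulose and 14.31 on maltose. The sum itself was 1.42 times as large on straw as on aspen, and 1.16 times over the 652 genes that differed by less than 2-fold.

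**Figure D5:**
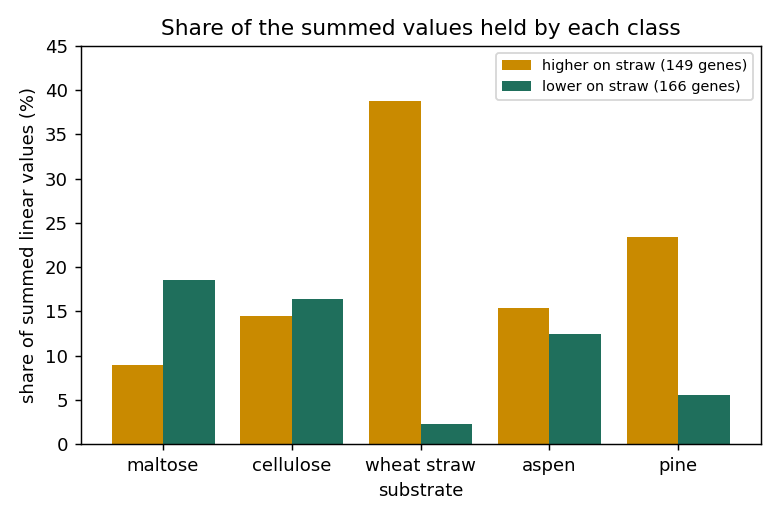
Share of the summed linear read counts of the 967 kept genes (vertical axis, %) held on each substrate by the 149 genes higher on straw than on aspen and by the 166 lower. The higher genes hold 38.7% on straw and 9.00% on maltose, and the lower genes hold 2.31% on straw and 18.5% on maltose. The shares on straw and aspen are partly fixed by the choice of genes.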

How the data were processed

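Paired-end reads of polyadenylated RNA were produced from 14 libraries, per the labels' protocols. For each gene the authors deposited a single log2 value of the normalized read count on each substrate, per the file headers. The submitters' processing notes list TopHat2, HTSeq and DESeq 1.5 without role or parameters. Genome build, scaling factors and the way libraries were pooled are not given in the sources used.

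Of 1000 rows, 23 exact repeats were dropped. The members and the selections of genes were chosen with earlier results of these data known. Named genes were the 2 largest differences in each direction over all genes, and again over genes at 12 or more. To these came the 2 clearest cases in each direction with straw apart from both woods, with aspen apart from straw and pine, and with straw and aspen at opposite ends, and the gene with the highest read count on straw and on aspen. Lists of enzyme families could not be filled without annotation. Alternatives were other filters, quantile normalization, centring, and a value of 8 added before the logarithm. The counting was tested on simulated data. Python 3.11.15, pandas 2.3.3, NumPy 2.4.6 and SciPy 1.17.1 were used.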

Additional observations from a re-analysis of the deposited data

How the results depend on the processing

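No paired analysis was possible because the table holds 1 pooled value per substrate, and leaving out libraries was not possible for the same reason. The counts of higher and lower genes at 2-fold and 4-fold stayed within 1.5 times their values in the 7 alternatives: no filter, a filter at 5, a filter on straw or aspen alone, quantile normalization, centring on column medians or on the median difference, and a value of 8 added before the logarithm. Higher genes ran from 140 to 176 and lower genes from 138 to 169 at 2-fold. At 4-fold they ran from 39 to 61 and from 41 to 51. Of the 149 and 166 genes, quantile normalization kept 117 and 111. The median difference of all genes came to 0.14 with centring on column medians. Gene 1288154, under 2-fold on the deposited values, reversed to -1.01 with quantile normalization. The other 89 of 90 values of named genes kept their direction and their side of 2-fold. The medians by level, added after the data were seen, reversed with quantile normalization, to 0.15 for genes under 6 and -0.18 for genes at 12 or more. That normalization gives all columns the same distribution by construction. With 8 added, the median for genes under 6 moved to -0.31. Without values per library, no difference could be set against replicate error.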

Other observations

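The 10 genes with the highest read counts on straw and the 10 on aspen had 5 in common. Of the 15 genes in either group, 5 were at least 2-fold higher on straw and 2 were at least 2-fold lower. Over all kept genes, 15.4% were higher and 17.2% lower. The 15 genes enter through the compared values themselves, so the balance among them is not read here. The straw group held 16.8% of the summed read counts on straw, and the aspen group held 14.9% of those on aspen.

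Among the kept genes, 16 pairs had ID numbers that follow each other. What such numbers say about position in the genome was not analysed here. In 5 of these pairs both genes differed by at least 2-fold between straw and aspen, in the same direction in 4 pairs. In 6 other pairs a single gene did. Of all kept genes, 32.6% differed by at least 2-fold. Some pairs share a gene, and no background for pairs was computed. One pair is genes 1596132 and 1596133, chosen after their values were seen, with straw minus aspen differences of -2.68 and -2.83. The next ID, 1596134, had a difference of 0.96, in the other direction.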
